A study of Canis lupus familiaris with 15 samples.

Results

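The transcripts of the hepatocyte growth factor (HGF) receptor MET, of the adaptors and effectors that bind it and of the proteins that govern activation of its ligand were followed in MDCK cells. The members were all probe sets that the platform annotation gives to 1 of 10 gene symbols (of 15115 in all), and they came to 21 of the 43035 probe sets on the array. By Entrez gene number these are MET (403438), GAB1 (483808), GRB2 (483312), SHC1 (490439), PTPN11 (477488), CBL (489369), STAT3 (490967), ST14 (489278), SPINT1 (487501) and SPINT2 (403665). MDCK cells are an established line of dog kidney epithelium, here grown on Transwell filters for 7 days and profiled on 15 Affymetrix canine arrays. The arrays fell into 4 groups. In HGF + PD (n = 4) the factor was combined with 50 uM of an agent written PD09859 in the labels, and in HGF + UO (n = 3) with 10 uM of an agent written UO126. HGF (n = 4) received the factor alone at 100 ng/ml for 24 h, as in both inhibitor groups, and Control (n = 4) was exposed to medium only. The series title names the added compounds as MAPK inhibitors, and the stated aim was to find which genes that pathway regulates once HGF acts. None of the 15 arrays had an inhibitor without HGF, and none is labelled as solvent alone. Effects of an inhibitor or its solvent that do not depend on HGF therefore cannot be told apart from effects on the HGF response. All cells were of 1 line. Replicates are labelled as biological, but no label tells whether they were independent cultures, and a p-value then reflects array-to-array spread that may be partly technical.

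HGF is secreted as an inactive single chain and becomes a ligand once a serine protease cuts it. Matriptase (ST14), a protease of the epithelial cell surface, is 1 such enzyme, and the membrane-bound Kunitz-type inhibitors SPINT1 and SPINT2 hold it in check. Cleaved HGF dimerises MET, a receptor tyrosine kinase whose phosphorylated tail recruits GRB2, SHC1, GAB1 and STAT3. GRB2 and SHC1 lead to RAS and ERK, GAB1 is the large scaffold that prolongs the signal, and PTPN11 (the phosphatase SHP2) binds GAB1 and sustains ERK activity. CBL is the ubiquitin ligase that marks MET for degradation. In MDCK cells this pathway is known for scattering colonies and for tubule formation.

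Values are log2 of the deposited GCRMA intensity of each probe set. GCRMA subtracts a background estimated from probe sequence and normalises between arrays. A probe set was tested if it reached a log2 intensity of 4 on at least 3 of the 15 arrays, and differences were tested with limma at an adjusted p of 0.05 over the 24904 probe sets that did so. Median intensity per array lay between 40.25 and 42.45. Of 11 annotated kidney epithelium markers 11 reached the filter level on every array, while COL1A1, COL1A2, DCN and LUM of the fibroblast list, TEK and VWF of the endothelial list and ITGAM, LYZ and CD79A of the leukocyte list were below it on every array. The summed intensity of the epithelial markers ranged from 84180 to 106000 in HGF + PD, from 90890 to 100400 in HGF + UO, from 87450 to 105400 in HGF and from 118300 to 128900 in Control. The fibroblast, endothelial and leukocyte lists had 3 of 7, 4 of 6 and 2 of 6 genes tested. These were PDGFRA, PDGFRB and THY1, then PECAM1, CDH5, KDR and TIE1, then CD68 and CD3E. All of them except CD68 reached the filter level on every array, which by itself does not show that a transcript was present. Without CD68, their SDs on the HGF arrays ran from 0.0055 for KDR and 0.0088 for TIE1 to 0.20 for THY1. On the same arrays PAX2 of the epithelial list had an SD of 0.014. Leaving CD68 aside, their Control means ran from 4.375 for KDR to 8.23 for CDH5. Whether these values are signal or background, and their source, was not tested. The summed leukocyte intensity was 99.07 to 102.5 in HGF + PD, 102.7 to 112.5 in HGF + UO, 122.8 to 372.6 in HGF and 108.9 to 113.9 in Control. The higher HGF values came through CD68, which rose by 3.03 ± 0.52 (SE) with HGF (limma, adjusted p = 0.000157). The HGF arrays differed widely on CD68, with an SD of 1.54 against 0.056 in Control. The part of CD68 in the results below was not tested. In these cultures fewer cells with a transcript and less of it per cell cannot be told apart.

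Of the 21 member probe sets 19 were tested, and 9 of the 10 genes had at least 1 among them. With HGF against Control 12 of the 19 passed, 3 higher and 9 lower, a share of 63.2% beside 55.6% of all probe sets tested, so that the share by itself says little about these genes. The background was 26.3% for higher and 29.2% for lower, and the arrays of both groups did not overlap for 12 members, beside 51.7% of all probe sets. Their median change was -0.23 on the log2 scale, beside -0.019 over all probe sets. With HGF + PD against HGF 14 passed, 3 higher and 11 lower (73.7% beside 55.4% of all), and with HGF + UO against HGF 12 passed, 4 higher and 8 lower (63.2% beside 52.4%). The background for higher and lower was 30.3% and 25.1% with PD and 27.2% and 25.2% with UO. Arrays did not overlap for 13 and 11 members in these comparisons, beside 55.6% and 54% of all probe sets. Probe sets of 1 gene share their transcript and are not independent. The 2 comparisons with an inhibitor share the HGF arrays with the first one, so values are given side by side for each gene.

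MET, the receptor, rose with HGF and was below its Control level when either inhibitor was present. Its 1 probe set read 10.78, 10.77, 10.76 and 10.96 on the HGF + PD arrays and 10.81, 10.75 and 10.84 on the HGF + UO arrays. It read 12.09, 12.26, 12.21 and 12.30 on the HGF arrays and 11.34, 11.41, 11.36 and 11.61 on the Control arrays. The HGF arrays lay above all others, the Control arrays came next, and the arrays of both inhibitor groups lay lowest and overlapped each other. MET averaged 12.21 ± 0.092 with HGF and 11.43 ± 0.13 in Control (SD, n = 4 each), a difference of 0.78 ± 0.07 (SE) or 1.72-fold (limma, adjusted p = 1.58e-07). Against HGF, the difference was -1.39 ± 0.07 with PD at 50 uM (adjusted p = 3.51e-10) and -1.41 ± 0.07 with UO at 10 uM (adjusted p = 8.26e-10). Against Control, MET fell by 0.61 ± 0.07 with HGF + PD (adjusted p = 9.44e-06) and by 0.63 ± 0.07 with HGF + UO (adjusted p = 2.59e-05). The platform annotation gives no other probe set to MET alone by which the level could be checked. Probe sets with several symbols or not listed were not searched.

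SPINT1, the Kunitz inhibitor also called HAI-1, showed the widest HGF difference among the members. It read 9.41, 10.07, 9.82 and 9.86 with HGF + PD and 9.69, 9.50 and 9.87 with HGF + UO. With HGF alone it read 8.03, 8.33, 8.61 and 8.59, against 10.29, 9.84, 10.04 and 9.85 in Control. No HGF array reached the lowest value of any other group, and both inhibitor groups overlapped Control. SPINT1 fell by 1.61 ± 0.16 with HGF against Control (3.06-fold, adjusted p = 6.16e-07). It was higher than in HGF alone by 1.40 ± 0.16 with HGF + PD (adjusted p = 2.85e-06) and by 1.30 ± 0.17 with HGF + UO (adjusted p = 1.49e-05). Against Control the differences were -0.22 (95% interval -0.56 to 0.12, adjusted p = 0.316) with HGF + PD and -0.32 (-0.68 to 0.05, adjusted p = 0.226) with HGF + UO.

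SPINT2 (HAI-2) moved the same way with HGF but by less on its bright probe set. That probe set read 14.51, 14.64, 14.53 and 14.62 with HGF + PD, 14.51, 14.55 and 14.52 with HGF + UO, 14.09, 14.24, 14.18 and 14.18 with HGF, and 14.49, 14.46, 14.47 and 14.45 in Control. The 4 HGF arrays were again apart from all others. SPINT2 fell by 0.30 ± 0.03 with HGF (1.23-fold, adjusted p = 3.29e-06), and was higher than in HGF alone by 0.40 ± 0.03 with HGF + PD and by 0.35 ± 0.04 with HGF + UO (adjusted p = 1.29e-07 and 1.34e-06). A dim second probe set, with means of 5.69 with HGF + PD, 6.00 with HGF + UO, 5.02 with HGF and 5.72 in Control, gave -0.70 ± 0.11 for HGF, 0.67 ± 0.11 for HGF + PD and 0.98 ± 0.12 for HGF + UO. Against Control, the bright probe set was higher with HGF + PD by 0.11 ± 0.03 (adjusted p = 0.0255), a call that was lost without HGF + PD replicate 2 (0.085, adjusted p = 0.0745) or 4 (0.093, 0.0777), or without Control replicate 2 (0.105, 0.0571), 3 (0.106, 0.0536) or 4 (0.101, 0.0596). Its adjusted p ranged from 0.00592 to 0.154 over all settings tried.

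ST14, matriptase, was lower with HGF by a margin close to the spread of its arrays. It read 7.12, 7.52, 7.29 and 7.30 with HGF + PD, 7.49, 7.24 and 7.45 with HGF + UO, 6.85, 7.02, 7.30 and 7.04 with HGF, and 7.36, 7.30, 7.62 and 7.29 in Control. HGF replicate 3 lay at the level of the lower Control arrays, so the groups overlapped. ST14 fell by 0.34 ± 0.11 with HGF (1.27-fold, adjusted p = 0.0172). The call was lost without HGF replicate 1 (-0.27, adjusted p = 0.0587) or Control replicate 3 (-0.27, adjusted p = 0.0619), and over all settings the adjusted p ranged from 0.00440 to 0.0619. With HGF + UO it was higher than in HGF alone by 0.34 ± 0.12 (adjusted p = 0.0268), and this call was lost on leaving out HGF + UO replicate 1 (0.29, adjusted p = 0.0992) or 3 (0.31, 0.0851), or HGF replicate 1 (0.27, 0.0779), 2 (0.33, 0.0519) or 4 (0.34, 0.0502). With HGF + PD the difference was 0.25 ± 0.11 (95% interval 0.016 to 0.49, adjusted p = 0.0664). That difference passed without HGF + PD replicate 1 (0.32, adjusted p = 0.0324) or HGF replicate 3 (0.34, adjusted p = 0.0172). The adjusted p ranged from 0.00698 to 0.0992 for HGF + UO and from 0.0172 to 0.195 for HGF + PD over the settings tried.

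**Figure D1:**
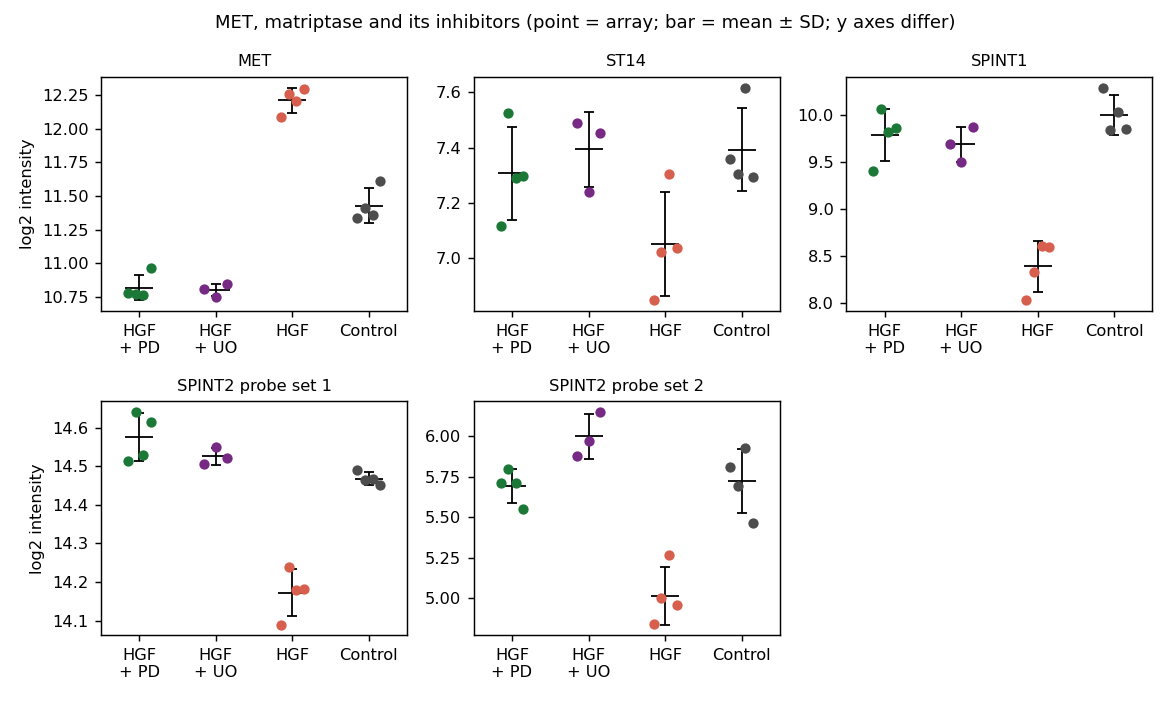
Log2 intensity (y axis, scale differs by panel) of MET, ST14, SPINT1 and the 2 SPINT2 probe sets in the groups HGF + PD, HGF + UO, HGF and Control (x axis), with a point per array and the mean ± SD as a bar. The HGF arrays sit highest for MET (12.09 to 12.30) and lowest for SPINT1 (8.03 to 8.61), and overlap Control for ST14.

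GAB1, the docking scaffold of MET, fell with HGF and remained lower than Control when an inhibitor was present. Its brightest probe set read 10.47, 11.11, 10.81 and 10.63 with HGF + PD and 11.10, 10.81 and 11.16 with HGF + UO. It read 10.37, 10.56, 10.86 and 10.76 with HGF, against 11.83, 11.68, 11.90 and 11.42 in Control. All 11 arrays that received HGF lay below the lowest Control array, and the 3 groups they formed overlapped one another. The HGF difference was -1.07 ± 0.15 (adjusted p = 1.99e-05), and -1.20 ± 0.18 on a second probe set (adjusted p = 4.55e-05). Against HGF the differences were 0.12 (95% interval -0.20 to 0.43, adjusted p = 0.531) with HGF + PD and 0.39 (0.043 to 0.73, adjusted p = 0.0565) with HGF + UO.

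The GAB1 difference between HGF + UO and HGF lay close to the threshold. It passed without HGF + UO replicate 2 (0.49, adjusted p = 0.0352) or HGF replicate 3 (0.46, adjusted p = 0.0337), with an adjusted p from 0.0269 to 0.182 over all settings. On the second probe set it was 0.39 (adjusted p = 0.105) and passed without HGF replicate 3 (0.51, adjusted p = 0.0413), with adjusted p from 0.0413 to 0.269 over the settings. Against Control, GAB1 fell by 0.96 ± 0.15 with HGF + PD (adjusted p = 0.000180) and by 0.69 ± 0.16 with HGF + UO (adjusted p = 0.00619), and the second probe set gave -1.10 ± 0.18 and -0.80 ± 0.19. GAB1 probe set 3 lay between 1.85 and 1.90 on every array, at the GCRMA floor, and was not tested.

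GRB2, the small adaptor that links receptors to the RAS exchange factor SOS, gave different answers on its 2 probe sets. The dimmer one read 8.38, 8.44, 8.32 and 8.33 with HGF + PD, 8.42, 8.46 and 8.41 with HGF + UO, 8.98, 8.93, 8.95 and 8.96 with HGF, and 8.33, 8.34, 8.43 and 8.16 in Control. The HGF arrays were tightly grouped above all the rest. On this probe set GRB2 rose by 0.64 ± 0.06 with HGF (1.56-fold, adjusted p = 1.75e-07) and was lower than in HGF alone by 0.59 ± 0.06 and 0.52 ± 0.06 in log2 size with HGF + PD and HGF + UO (adjusted p = 4.26e-07 and 3.81e-06). The brighter one spread from 8.71 to 9.78 with HGF + PD, from 9.72 to 10.00 with HGF + UO, from 9.98 to 10.44 with HGF and from 10.05 to 10.20 in Control. Here the HGF difference was 0.09 (95% interval -0.28 to 0.46, adjusted p = 0.686), while HGF + PD against HGF gave -0.95 ± 0.17 (adjusted p = 0.000261) and HGF + UO against HGF gave -0.37 (-0.76 to 0.033, adjusted p = 0.117). The rise of GRB2 with HGF therefore rests on 1 of 2 probe sets.

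SHC1, the adaptor that feeds a second branch into GRB2, likewise differed between its 5 probe sets. Probe set 2 (numbered from the brightest) was the one of the 5 that passed for HGF against Control. It read 9.12, 9.11, 9.17 and 9.25 with HGF + PD, 9.28, 9.11 and 9.27 with HGF + UO, 9.67, 9.79, 9.48 and 9.64 with HGF, and 9.09, 9.26, 9.15 and 9.28 in Control. The HGF arrays lay above all others, and the other 3 groups overlapped. SHC1 rose by 0.45 ± 0.07 on it with HGF (1.37-fold, adjusted p = 7.51e-05), and the difference from HGF was -0.48 ± 0.07 with HGF + PD and -0.42 ± 0.08 with HGF + UO (adjusted p = 4.03e-05 and 0.000288). The HGF differences on the other 4 were -0.04, -0.25, 0.33 and 0.26, with adjusted p of 0.865, 0.157, 0.191 and 0.0611. Without HGF replicate 2 probe set 3 passed as lower (-0.37, adjusted p = 0.0371), and probe set 5 passed as higher without HGF replicate 4 (0.34, 0.0162) or Control replicate 1 (0.34, 0.0185). The adjusted p ranged from 0.0371 to 0.346 and from 0.0162 to 0.202 over all settings for these 2.

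With HGF + PD against HGF all 5 SHC1 differences were negative, from -0.52 to -0.37, and 4 passed. Probe set 4 missed (-0.48, adjusted p = 0.0583) and passed without HGF replicate 1 (-0.60, adjusted p = 0.0261). Its adjusted p ranged from 0.00252 to 0.163 over the settings. The lowest came on leaving out 3 arrays together, a setting not planned beforehand. The call on probe set 3 (adjusted p = 0.0389) was lost without HGF + PD replicate 1 (-0.30, adjusted p = 0.115) or 4 (-0.31, 0.111), or HGF replicate 2 (-0.26, 0.131) or 3 (-0.39, 0.0579), with a range from 0.0111 to 0.131. With HGF + UO, probe sets 2 and 5 passed as lower, and the differences of the others ran from -0.43 to 0.07. The call on probe set 5 (-0.30, adjusted p = 0.0480) was lost on leaving out any 1 of the 3 HGF + UO arrays (adjusted p = 0.0965 to 0.0988) or HGF replicate 1 (0.0543), 2 (-0.20, 0.135) or 3 (0.0811). The HGF + UO arrays read 5.7205, 5.72317 and 5.72317 on this dim probe set, and whether such repeated values are signal was not tested.

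STAT3, the transcription factor that docks on MET and is activated there, was lower in each group that received HGF, and lowest where an inhibitor was added. Probe set 1 (the brightest) read 9.50, 9.70, 9.70 and 9.49 with HGF + PD, 9.95, 9.92 and 9.89 with HGF + UO, 10.31, 10.58, 10.43 and 10.39 with HGF, and 10.63, 10.73, 10.59 and 10.69 in Control. None of these 4 groups overlapped another on this probe set. With HGF, STAT3 fell by 0.23 ± 0.07 on it (1.18-fold, adjusted p = 0.00802), and 2 further probe sets gave -0.35 ± 0.07 and -0.37 ± 0.09 (adjusted p = 0.00112 and 0.00385). Probe set 2 read -0.14 (95% interval -0.28 to -0.0080, adjusted p = 0.0682) and passed without Control replicate 1 (-0.17, adjusted p = 0.0407), with adjusted p from 0.0176 to 0.198 over the settings.

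In the presence of an inhibitor, STAT3 moved further down rather than back. With HGF + PD against HGF the 4 probe sets gave -0.83 ± 0.07, -0.82 ± 0.06, -0.62 ± 0.07 and -0.78 ± 0.09, and with HGF + UO against HGF they gave -0.51 ± 0.07, -0.61 ± 0.07, -0.35 ± 0.08 and -0.55 ± 0.10. All 8 of these passed, with adjusted p from 3.81e-08 to 0.00186. Against Control the 4 differences lay between -1.15 and -0.97 with HGF + PD and between -0.91 and -0.70 with HGF + UO, and all passed. Direction was thus the same on every STAT3 probe set, unlike GRB2 and SHC1.

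PTPN11, the SHP2 phosphatase, passed in no comparison. Its 1 probe set ranged from 7.42 to 7.44 with HGF + PD, from 7.33 to 7.53 with HGF + UO, from 7.47 to 7.67 with HGF and from 7.46 to 7.50 in Control. The value 7.4227 recurred on HGF + PD replicates 2 and 3. The value 7.46858 recurred on HGF + UO replicate 1, HGF replicate 1 and Control replicate 4. Whether the PTPN11 probe set held signal above background was not tested, so the lack of a call need not mean an unchanged transcript. The 95% interval of the PTPN11 difference with HGF ran from -0.063 to 0.18 (adjusted p = 0.418). Those against HGF ran from -0.23 to 0.012 with HGF + PD (adjusted p = 0.118) and from -0.23 to 0.034 with HGF + UO (adjusted p = 0.208). CBL, the ubiquitin ligase of MET, lay between 2.36 and 2.55 on every array, under the filter level, and was not tested.

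**Figure D2:**
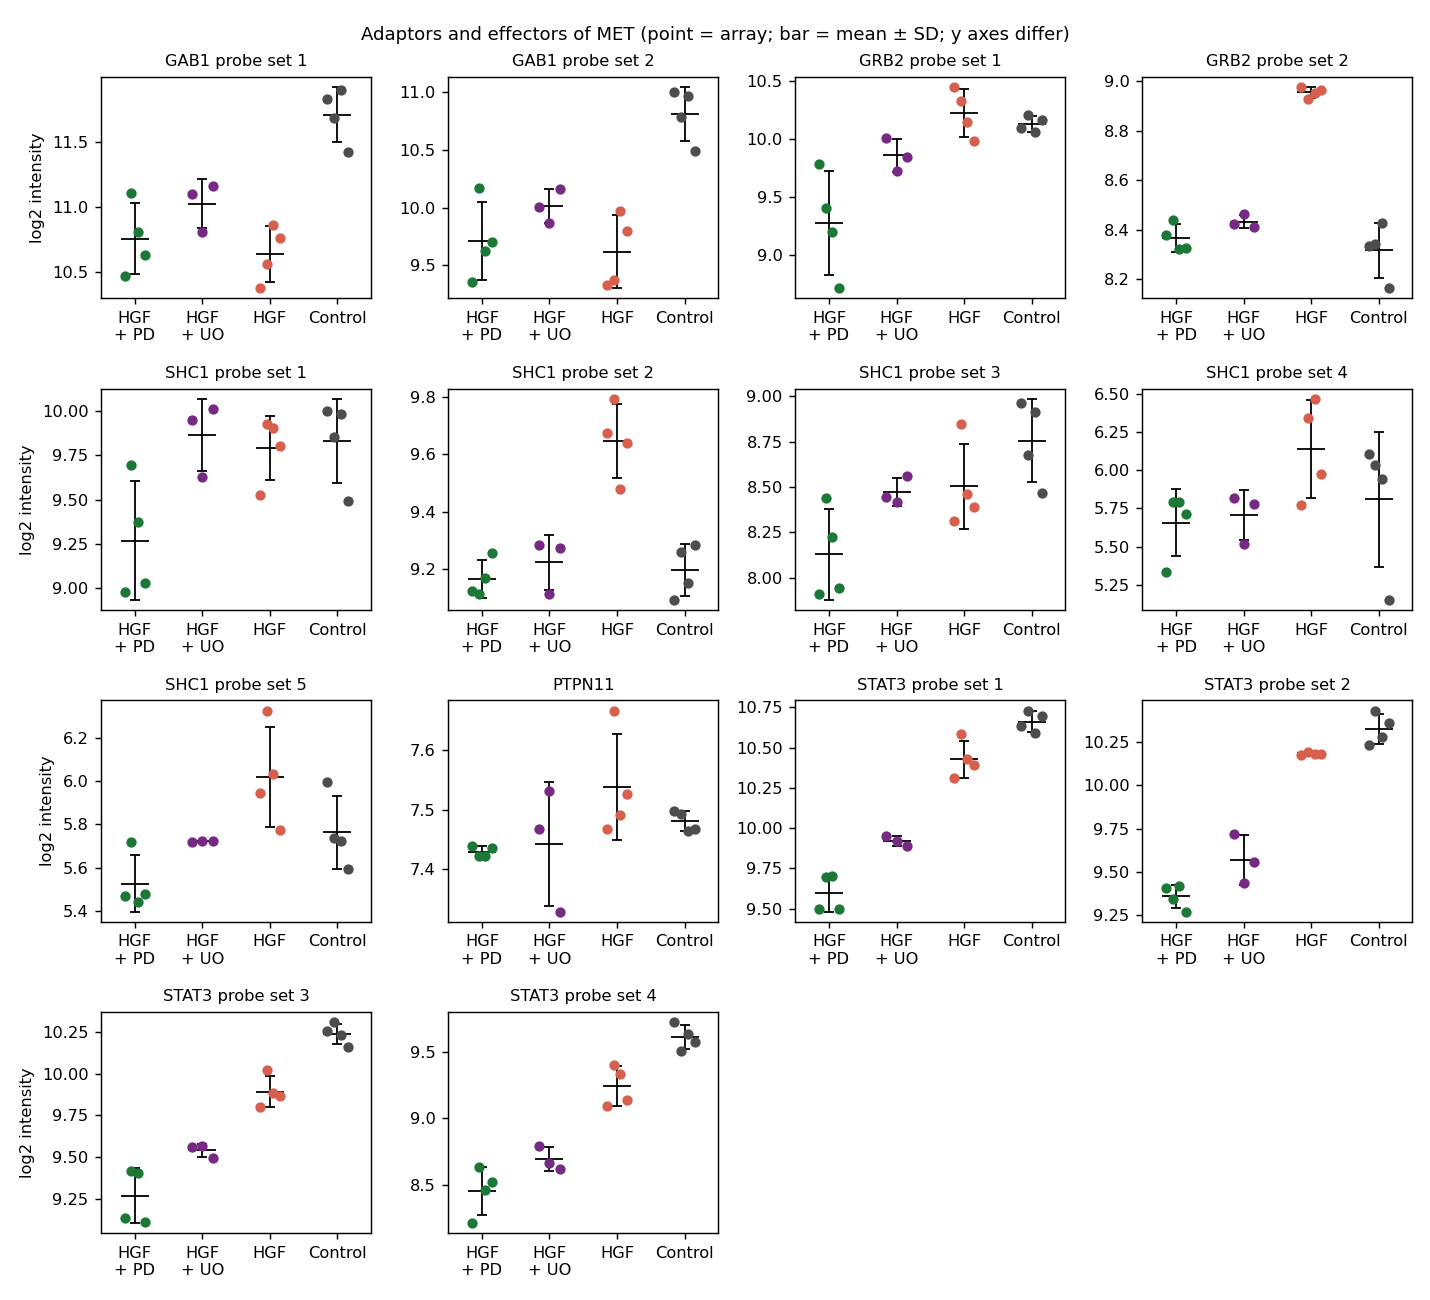
Log2 intensity (y axis, scale differs by panel) of the 14 tested probe sets of GAB1, GRB2, SHC1, PTPN11 and STAT3 in HGF + PD, HGF + UO, HGF and Control (x axis), with a point per array and the mean ± SD as a bar. GAB1 is highest in Control on both probe sets, GRB2 probe set 2 and SHC1 probe set 2 are highest with HGF, and the means in the 4 STAT3 panels are lowest with the inhibitors and highest in Control.

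Set against Control, the members with an inhibitor present fell into a few patterns. With HGF + PD 11 of the 19 probe sets passed, 1 higher and 10 lower (57.9% beside 34.4% of all probe sets), and with HGF + UO 7 passed, all lower (36.8% beside 22.3%). Over all probe sets 20.2% were higher and 14.3% lower with HGF + PD, against 11.9% and 10.3% with HGF + UO. Arrays did not overlap for 11 members with HGF + PD (39.5% of all probe sets) and for 9 with HGF + UO (31.7%). MET, GAB1 and STAT3 made up the 7 with HGF + UO and 7 of the 10 with HGF + PD. The other 3 with HGF + PD were the brighter GRB2 probe set (-0.86 ± 0.17, adjusted p = 0.00142) and SHC1 probe sets 1 and 3 (-0.56 ± 0.16 and -0.63 ± 0.14, adjusted p = 0.0149 and 0.00362). The call on SHC1 probe set 1 was lost without HGF + PD replicate 4 (-0.48, adjusted p = 0.0521), with adjusted p from 0.00234 to 0.0521 over the settings. ST14 differed from Control by -0.09 (95% interval -0.32 to 0.15) with HGF + PD and by 0.00 (-0.26 to 0.26) with HGF + UO.

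**Figure D3:**
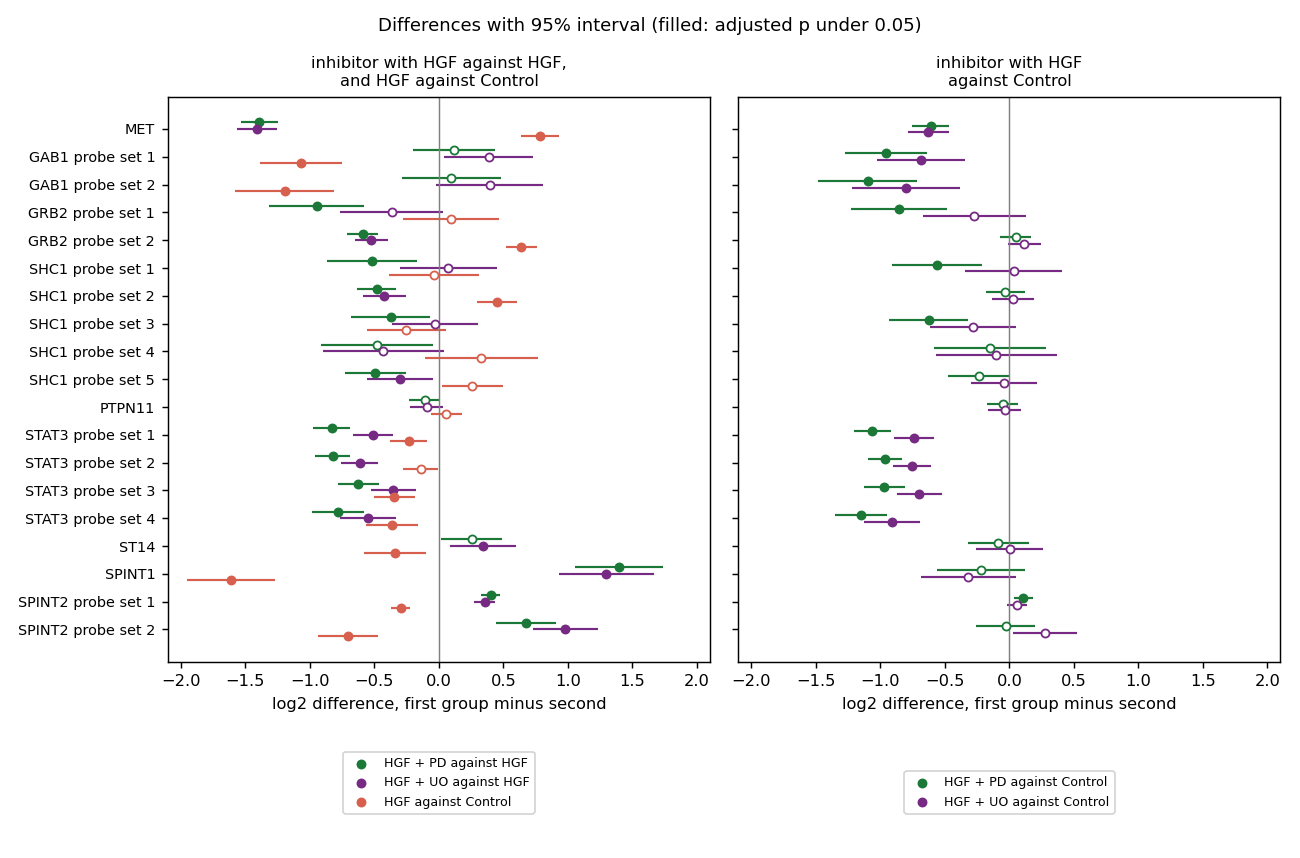
Log2 differences of the 19 tested member probe sets (rows) with 95% intervals as lines. The left panel gives HGF + PD against HGF, HGF + UO against HGF and HGF against Control, the right panel gives both inhibitor groups against Control, and filled points passed at an adjusted p of 0.05. MET and SPINT1 lie on opposite sides of 0 in each comparison of the left panel, GAB1 is negative in every comparison with Control, and STAT3 is negative throughout.

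Individual arrays deviated from their group on many members at once. HGF replicate 1 was the lowest HGF array on 15 of the 19 probe sets, Control replicate 4 the lowest of its group on 11 and HGF + UO replicate 2 on 11. HGF + PD replicate 2 was the highest of its group on 13 and HGF replicate 2 on 10. The matching shares over all probe sets are not given here, and probe sets of 1 gene are not independent. The counts are therefore not read as a trait of the members. The 3 low arrays were picked on these same member values and not planned beforehand, and the high arrays were kept. Counts without the low arrays are therefore a description only. Leaving out the 3 low arrays together gave 10 calls for HGF against Control, 15 for HGF + PD against HGF and 11 for HGF + UO against HGF. All arrays gave 12, 14 and 12. STAT3 probe set 1 (-0.18, adjusted p = 0.0726) and ST14 (-0.31, adjusted p = 0.0513) were the HGF calls lost. The log2 ratio of the 3' to the 5' actin control probe set also moved with the groups, at 2.13 ± 0.067 in HGF + PD, 2.15 ± 0.041 in HGF + UO, 1.48 ± 0.081 in HGF and 2.24 ± 0.05 in Control (SD). The exact permutation p for HGF against Control was 0.0286, the smallest that 4 against 4 arrays allow (two-sided, 0.0572 adjusted over 10 comparisons), while the GAPDH ratio was 1.06 ± 0.036 in HGF and 1.13 ± 0.04 in Control (exact permutation p = 0.0571). With HGF + UO the GAPDH ratio was 1.25 ± 0.019. The exact permutation p was 0.0286 against HGF and against Control, the smallest that 3 against 4 arrays allow (0.0572 adjusted for both). The part of the actin and GAPDH ratios in the differences above was not tested.

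Of 102 other genes of the pathway, 79 had a tested probe set, each taken at its brightest. With HGF 40 of these rose and 17 fell (72.2% called beside 55.6% of all probe sets), with a median change of 0.24 beside -0.019 over all. Against the same HGF arrays, 11 were higher and 46 lower with HGF + PD (72.2% beside 55.4% of all probe sets) and 8 higher and 46 lower with HGF + UO (68.4% beside 52.4%). The medians were -0.35 and -0.46, beside -0.010 and 0.0050 over all. Against Control 6 were higher and 27 lower with HGF + PD (41.8% called beside 34.4%). With HGF + UO 2 were higher and 20 lower (27.8% called beside 22.3%). All these shares lay above those of all probe sets, by less against Control than in the other comparisons, and the directions were less even. Each pathway gene counts by its brightest probe set, while the background counts every probe set tested, dim ones included. The gaps were not tested. Over all probe sets 20.2% were higher and 14.3% lower with HGF + PD, and 11.9% and 10.3% with HGF + UO. Leaving out HGF + UO replicate 2 reduced the 22 calls for HGF + UO against Control to 14.

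The ligand side was largely below the filter. HGF itself read between 2.26 and 2.38 on every array, and the related ligand MST1 and the HGF activator HGFAC stayed below 4 as well. MST1R, the sister receptor of MET, differed by -0.01 with HGF (adjusted p = 0.973). Among 7 tested proteases and partners 2 rose and 3 fell with HGF, where 26.3% of all probe sets rose and 29.2% fell. PLAT, tissue plasminogen activator, rose by 2.52 ± 0.17 (adjusted p = 9.12e-09), and the transmembrane protease TMPRSS4 by 1.84 ± 0.22 (adjusted p = 4.83e-06). F2RL1, the protease-activated receptor through which matriptase can signal, fell by 1.62 ± 0.12 (adjusted p = 3.43e-08). Hepsin (HPN), another HGF-cleaving protease, was chosen after its values were seen and fell by 0.88 ± 0.15 (adjusted p = 0.000212). Against HGF, PLAT changed by -3.15 ± 0.17 with HGF + PD and -2.82 ± 0.18 with HGF + UO, and F2RL1 by 1.03 ± 0.12 and 1.47 ± 0.13.

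Of 14 co-receptors and partners of MET 8 rose and 3 fell with HGF (78.6% called beside 55.6% of all probe sets). The integrin subunit ITGA6 rose by 4.34 ± 0.07, though 1 of its other probe sets gave 0.17 (adjusted p = 0.134), the receptor EGFR rose by 1.90 ± 0.07, and CD44, a co-receptor of MET, by 1.52 ± 0.10. EGFR changed by -2.13 ± 0.07 with HGF + PD and -2.05 ± 0.08 with HGF + UO against HGF, and CD44 by -1.57 ± 0.10 and -1.93 ± 0.11. The HGF differences of the 3 genes had adjusted p from 1.37e-14 to 9.35e-09. TNS4, a focal adhesion protein that binds MET, and MUC20, a mucin that binds its docking site, were chosen after their values were seen. TNS4 rose by 2.33 ± 0.18 and MUC20 fell by 2.41 ± 0.30 with HGF, and TNS4 was below Control by 1.86 ± 0.18 in log2 size with HGF + PD and by 1.88 ± 0.20 with HGF + UO.

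Of 27 other adaptors and effectors 13 rose and 5 fell with HGF (66.7% called beside 55.6% of all probe sets). In the RAS-ERK core 8 of 12 rose and 1 fell (75% called), and the lists were not tested against each other. RAC1, the GTPase of lamellipodia, rose by 0.82 ± 0.05, and its effector kinase PAK2 by 1.22 ± 0.09 (adjusted p = 1.55e-09 and 2.43e-08). GRB7, an adaptor linked to cell migration, fell by 1.35 ± 0.12 (adjusted p = 1.40e-07). It was still below Control by 0.90 ± 0.12 in log2 size with HGF + PD and by 1.31 ± 0.12 with HGF + UO. RASA1, a GTPase-activating protein that turns RAS off, rose by 0.96 ± 0.05, and the kinases ARAF and MAP2K1 by 0.50 ± 0.07 and 0.42 ± 0.04 (adjusted p = 3.90e-10, 1.45e-05 and 5.69e-07). The 2 other MAP2K1 probe sets did not pass (-0.0038 and 0.16, adjusted p = 0.987 and 0.315). Against HGF, 0 of the 12 RAS-ERK genes were higher and 8 lower with HGF + PD (median -0.55), where 30.3% of all probe sets were higher and 25.1% lower. The counts with HGF + UO were also 0 and 8 (median -0.54), where 27.2% and 25.2% of all were higher and lower. Against Control 0 rose and 3 fell with each, a share of 25% beside 34.4% of all probe sets with HGF + PD and 22.3% with HGF + UO.

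Of 18 genes of receptor downregulation 9 rose and 5 fell with HGF (77.8% called beside 55.6% of all probe sets). CBLC, the epithelial relative of CBL, had means of 5.83 ± 0.10 with HGF + PD, 5.93 ± 0.03 with HGF + UO, 9.09 ± 0.39 with HGF and 5.87 ± 0.08 in Control (SD). It thus rose by 3.22 ± 0.14 with HGF (adjusted p = 1.34e-10), while the differences from Control were -0.04 with HGF + PD and 0.06 with HGF + UO (adjusted p = 0.840 and 0.855). CBL was under the filter on every array, as given above. ERRFI1, a feedback inhibitor of EGFR, rose by 2.94 ± 0.13 (adjusted p = 1.20e-10), and the ERK phosphatase DUSP6 by 1.09 ± 0.06 (adjusted p = 7.89e-10). DUSP6 stayed above Control with HGF + PD (1.07 ± 0.06, adjusted p = 9.01e-09) and with HGF + UO (0.35 ± 0.06, adjusted p = 0.000882). Against HGF, DUSP6 differed by -0.014 ± 0.06 with HGF + PD (adjusted p = 0.852) and by -0.74 ± 0.06 with HGF + UO (adjusted p = 1.39e-07).

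**Figure D4:**
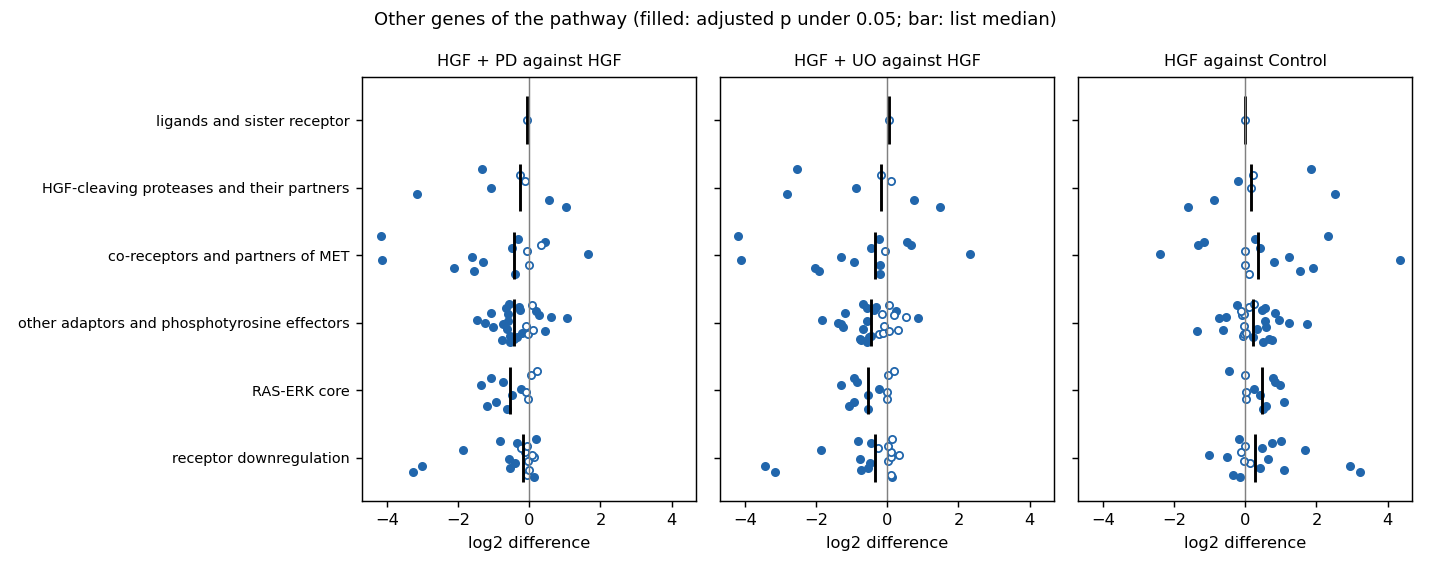
Log2 differences (x axis) of the 79 other tested pathway genes in 6 lists (rows) for HGF + PD against HGF, HGF + UO against HGF and HGF against Control, with a point per gene, filled where the adjusted p was under 0.05, and the list median as a bar. The RAS-ERK core has a median of 0.46 with HGF and of -0.55 and -0.54 with the inhibitors.

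The genes most like MET over the 15 arrays, by Pearson correlation among 10286 other genes, were LAMB3 (r = 0.990), a laminin subunit, CLDN4 (0.989), a claudin, and RBMS1 (0.986), an RNA-binding protein. LAMB3 averaged 9.93 with HGF + PD, 9.76 with HGF + UO, 12.74 with HGF and 10.99 in Control, the same order of HGF, Control and inhibitor groups as MET. Those most like ST14 were UBL5 (0.959), FKBP8 (0.937) and SF3B2 (0.934). The points are arrays of 4 groups, so that these values describe shared group levels and shared arrays. Among the members, SPINT2 had r = -0.917 with MET and 0.899 with SPINT1, and ST14 had 0.812 with SPINT1, each over the same 15 arrays.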

How the data were processed

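RNA of MDCK cells was hybridised by the authors to 15 arrays, and the deposited intensity values are linear, between 1.97 and 104385, and made with GCRMA, as the submitters' processing notes say. Its version and settings are not given in the sources used here. GCRMA pulls dim probe sets towards a floor, which shrinks differences of weakly expressed genes. The flat level differed by probe set here, at 1.85 to 1.90 for GAB1 probe set 3 and 2.36 to 2.55 for CBL. Flat values also occurred above the filter level, as for SPRY1 on the HGF arrays (mean 7.34, SD 0). GCRMA also equalises arrays, so a shift shared by all genes would not be seen. The number of arrays limits the precision.

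From these values log2 was taken, 111 control probe sets were set aside, and 24904 of 43035 probe sets were kept, namely those that reached 4 on the log2 scale on 3 or more arrays. One linear model with a mean per group was fitted over all 15 arrays with limma 3.58.1 in R 4.3.3 (lmFit, eBayes with a variance trend), and p-values were adjusted by Benjamini-Hochberg over all probe sets kept, two-sided, at 0.05. The script was tested on simulated data. Symbols came from the platform annotation: 29264 probe sets had 1 symbol, 439 had several and 13231 were not listed. Each pathway gene was represented by its brightest probe set. Named were all member probe sets, the 3 genes of each pathway list with the lowest adjusted p for HGF against Control, and the 3 genes most correlated with MET and with ST14. The members and lists were chosen with earlier results of these data known. Alternatives covered the filter, normalization, an offset of 16 before log2, the variance trend, fits of both groups alone, a replicate block and leaving out arrays. Leaving out 3 arrays together was not planned beforehand, and those arrays were picked on the member values.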

Additional observations from a re-analysis of the deposited data

Results flagged for a closer look

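Of 57 groups of member values tested for a stray array by Dixon's ratio, 2 exceeded the 95% critical value of 0.829, and chance alone marks about 1 group in 20. MET read 10.962 on HGF + PD replicate 4, above the other HGF + PD arrays at 10.763 to 10.781 (ratio 0.912). SHC1 probe set 5 read 5.7205 on HGF + PD replicate 2, above the others at 5.4391 to 5.4783 (ratio 0.861). The same 5.7205 was read on HGF + UO replicate 1, and 5.72317 on HGF + UO replicates 2 and 3 and Control replicate 3. Whether these repeated values are signal or background was not tested.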

How the results depend on the processing

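Over 24 settings the 5 counts of member probe sets called stayed within 1.5 times those reported, at 10 to 14 for HGF against Control, 13 to 15 for HGF + PD against HGF, 10 to 13 for HGF + UO against HGF, 9 to 12 for HGF + PD against Control and 7 to 8 for HGF + UO against Control. Of 1567 single member values 1507 kept their call, 33 lost it, 27 gained it and 0 called values changed sign. Some of these changes came with settings other than a left-out array, and their causes were not tested. Under quantile normalization PTPN11 passed for HGF + PD against HGF (-0.19, adjusted p = 0.0116), GAB1 probe set 1 for HGF + UO against HGF (0.0269), and STAT3 probe set 2 (0.0176) and SHC1 probe set 5 (0.0335) for HGF against Control, while SPINT2 probe set 1 lost its call for HGF + PD against Control (0.065, 0.154). That SPINT2 call was also lost without the variance trend (0.0713), and SHC1 probe set 5 also passed with median centring (0.0339). With only both groups in the fit GRB2 probe set 1 passed for HGF + UO (0.0406 against HGF, 0.0414 against Control), as did GAB1 probe set 1 for HGF + UO against HGF (0.0493), SHC1 probe set 4 for HGF + PD against HGF (0.0441) and STAT3 probe set 2 for HGF against Control (0.0401). In that fit SHC1 probe set 3 with HGF + PD (0.0735) and probe set 5 with HGF + UO (0.0823) lost their calls against HGF, as both did with no filter (0.0615 and 0.0866). With a filter of log2 6, SHC1 probe set 4 (0.0471, HGF + PD) and GAB1 probe set 1 (0.0434, HGF + UO) passed against HGF. The pathway counts also stayed within 1.5 times, except HGF + UO against Control, where leaving out 1 array gave 14 to 20 genes against 22, with 14 without HGF + UO replicate 2. Same-numbered arrays did not deviate together in every pair (correlations from -0.247 to 0.205 for HGF against Control, -0.0597 to 0.412 for HGF + PD against HGF, -0.159 to 0.174 for HGF + UO against HGF), so the numbers were not read as pairs. With a replicate block the member counts were 13, 15, 13, 11 and 7 in the order above, and the pathway counts 56, 55, 53, 33 and 22. The block added the calls of GRB2 probe set 1 for HGF + UO against HGF (-0.45, adjusted p = 0.0258), SHC1 probe set 4 for HGF + PD against HGF (0.0485) and SHC1 probe set 5 for HGF against Control (0.0376). For probe sets near the GCRMA floor, CBL among them, a fall could not be seen.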
